A study of Mus musculus with 12 samples.

Results

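The genes described here encode proteins that bind the short cytoplasmic tail of the amyloid precursor protein APP or partner it in the membrane. They are the Fe65 adaptors Apbb1, Apbb2 and Apbb3, the X11 (Mint) adaptors Apba1, Apba2 and Apba3, the kinase scaffold Mapk8ip1 (JIP1), the reelin adaptor Dab1, and the membrane proteins Itm2b (BRI2) and Sorl1. Members were all probe sets whose platform annotation gave one of these symbols as the only gene. This rule found 24 probe sets for the 10 genes, out of 45037 probe sets tested and 18193 genes with such a probe set. A further 1 probe set named Apba3 together with another gene and was left out.

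RNA was measured on 12 arrays, each from the prefrontal cortex or the hippocampus of a female mouse aged 38 to 40 weeks on a C57BL/6 background, after 6 generations of back-crossing. All mice are labelled as lacking APLP2, a relative of APP. APLP2-KO mice (APLP2-/-) carried intact App, whereas APPsα-DM mice (APPα/αAPLP2-/-) had both App alleles edited as well, and each genotype and tissue had 3 arrays. The allele is constitutive, no wild-type sample was analysed here, and the labels do not say whether cortex and hippocampus with the same number came from 1 mouse. App itself was lower in APPsα-DM by 25.4-fold in cortex and 24.3-fold in hippocampus on 1420621_a_at, but by 3.17-fold and 3.76-fold on the brighter 1427442_a_at, and its 2 dim probe sets did not pass. Aplp2 probe sets gave signal in every group, from 9.94 to 10.08 on 1421887_a_at, so the array values do not show the loss of APLP2, which rests on the labels. Where the App and Aplp2 probes fall in the altered transcripts was not examined.

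As general background, the tail of APP carries a tyrosine-based motif that is recognised by the phosphotyrosine-binding domains of the Fe65, X11, JIP1 and DAB1 proteins. These adaptors link APP to the nucleus, to synaptic vesicle machinery, to motor proteins and to kinases. The allele made in APPsα-DM mice is generally described as yielding only the secreted ectodomain, which has neither the membrane anchor nor this tail. ITM2B and SORL1 are not tail adaptors but membrane proteins, of which the former binds APP and limits its cleavage and the latter sorts it between the cell surface, endosomes and the Golgi.

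Between the genotypes, no member passed the test. Between the tissues, Dab1 and Itm2b were higher in hippocampus, and Apbb1, Apbb2 and Mapk8ip1 were higher in cortex, by 1.12-fold to 1.40-fold over both genotypes. Apbb2 passed in neither genotype alone, and Mapk8ip1 passed on its brighter probe set only, while the fainter pointed the other way. Sorl1, Apbb3 and the 3 X11 genes had no probe set past the threshold between the tissues. The question behind the genotype comparison was whether brains with only the secreted part of APP differ in gene expression, and here it is put to the genes that normally meet the part that is gone. Values are the authors' log2 signals, so a difference of 1 is a doubling, and every adjusted p below is limma's, two-sided, with Benjamini-Hochberg adjustment over all probe sets and a threshold of 0.05. Errors of differences are moderated standard errors, and levels of different probe sets cannot be set against each other, because each has its own affinity.

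Stretches of reference sequence are shown for Dab1 and Itm2b, the members higher in hippocampus, and for Apbb1, whose probe sets were both lower there. Each is the 250 bases before an annotated start, from RefSeq on GRCm38.p6, printed in the direction of the gene, with GC boxes (GGGCGG or, on the other strand, CCGCCC) in capitals. Dab1 has 2 windows in the table, which belong to starts 748038 bases apart on the plus strand, at chr4:103619250-103619499 and chr4:104367288-104367537. Itm2b lies on the minus strand at chr14:73385290-73385539, and the Apbb1 window shown, 1 of 3 in the table, on the minus strand at chr7:105581492-105581741.
Dab1 upstream start: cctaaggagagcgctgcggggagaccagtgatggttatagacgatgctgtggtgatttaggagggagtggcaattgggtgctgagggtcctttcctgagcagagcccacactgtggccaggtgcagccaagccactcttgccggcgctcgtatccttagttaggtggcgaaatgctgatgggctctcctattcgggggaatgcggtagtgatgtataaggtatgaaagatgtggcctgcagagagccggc
Dab1 downstream start: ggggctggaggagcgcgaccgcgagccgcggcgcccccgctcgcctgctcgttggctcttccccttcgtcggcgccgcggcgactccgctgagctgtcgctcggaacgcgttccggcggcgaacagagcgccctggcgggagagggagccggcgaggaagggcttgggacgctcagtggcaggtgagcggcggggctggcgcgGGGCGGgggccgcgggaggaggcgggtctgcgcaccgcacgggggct
Itm2b start: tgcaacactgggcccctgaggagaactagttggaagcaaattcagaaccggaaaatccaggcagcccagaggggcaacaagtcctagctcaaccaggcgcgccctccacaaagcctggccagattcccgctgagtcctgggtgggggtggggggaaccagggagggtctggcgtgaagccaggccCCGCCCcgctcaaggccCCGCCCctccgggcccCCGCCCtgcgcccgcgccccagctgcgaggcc
Apbb1 start: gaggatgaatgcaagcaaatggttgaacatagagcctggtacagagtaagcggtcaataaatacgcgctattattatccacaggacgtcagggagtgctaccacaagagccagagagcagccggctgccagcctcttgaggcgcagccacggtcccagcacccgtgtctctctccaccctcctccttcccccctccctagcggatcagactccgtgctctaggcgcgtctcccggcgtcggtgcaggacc

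The windows differed in composition. The upstream Dab1 window held 0 GC boxes and had 56.4% G and C, whereas the downstream window held 1 and had 78.0%. Itm2b held 3 GC boxes and the printed Apbb1 window held 0, while 1 of the 3 Apbb1 windows held at least 1, against 32.7% of the 32851 windows of this length in the table that held at least 1. The E box (CANNTG) occurred in all 4 windows, as in 66.2% of all windows, and neither TATAAA nor the cyclic AMP element TGACGTCA was found in any of them on either strand. These are matches of letters only. Of the 10 members 8 had a window, and Mapk8ip1 and Apbb3 had none. Which start the transcripts read by the probe sets of these genes come from was not analysed here.

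**Figure D1:**
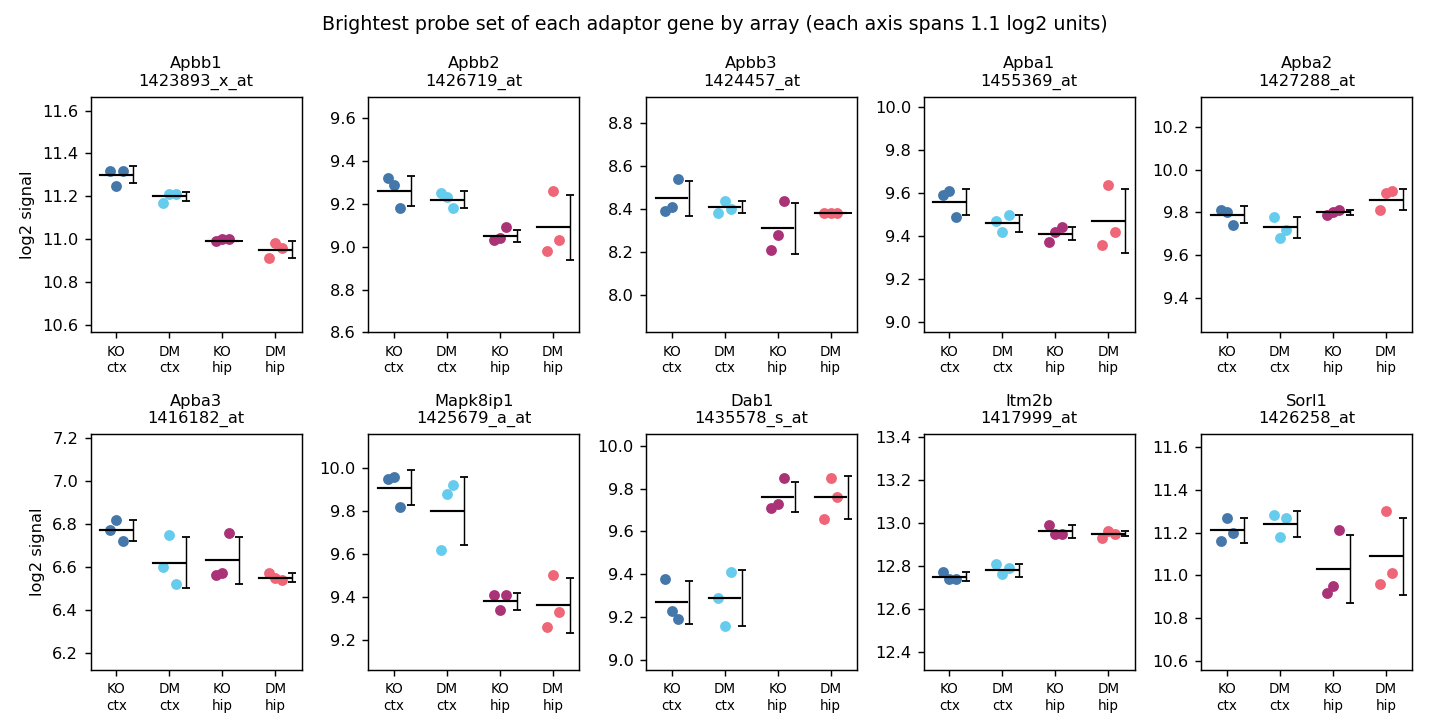
Log2 signal of the brightest probe set of each of the 10 genes (vertical axis, log2 signal, every panel spanning the same height) in the 4 groups of 3 arrays, where points are arrays, lines are means and bars are SD. Within a tissue the genotypes lie close together in every panel, while Dab1 and Itm2b lie higher and Apbb1 and Mapk8ip1 lower in hippocampus than in cortex.

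Apbb1 encodes Fe65, a neuronal adaptor that can carry the released APP tail to the nucleus. On probe set 1423892_at the APLP2-KO cortex arrays read 11.11, 11.10 and 11.19 and the APPsα-DM cortex arrays 10.96, 11.08 and 10.99. The hippocampus arrays read 10.74, 10.79 and 10.81 in APLP2-KO and 10.70, 10.78 and 10.78 in APPsα-DM. Every cortex array was above every hippocampus array, and in cortex the APLP2-KO arrays were all above the APPsα-DM arrays. Signal in hippocampus was lower than in cortex by 1.28-fold in APLP2-KO (-0.35 ± 0.06, adjusted p = 0.00202) and by 1.19-fold in APPsα-DM (-0.26 ± 0.06, adjusted p = 0.0180). The gap between the genotypes in cortex was smaller, at -0.12 ± 0.06, and did not pass the test (adjusted p = 0.9996).

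The other Apbb1 probe set, 1423893_x_at, whose suffix marks probes that can cross-hybridise, gave the same picture. It averaged 11.30 ± 0.04 (SD, n = 3) in the cortex of APLP2-KO and 11.20 ± 0.02 in that of APPsα-DM, and 10.99 ± 0.00 and 10.95 ± 0.04 in the hippocampus of APLP2-KO and APPsα-DM. Its tissue difference was -0.30 ± 0.06 in APLP2-KO (adjusted p = 0.00321) and -0.25 ± 0.06 in APPsα-DM (adjusted p = 0.0130). Both probe sets kept their call in APLP2-KO without any array. In APPsα-DM the call of 1423892_at was lost without hippocampus array 1 (adjusted p = 0.0710) or cortex array 2 (0.0650), and that of 1423893_x_at without hippocampus array 1 (0.0539).

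Apbb2, the Fe65-like adaptor also made outside the brain, showed a smaller difference in the same direction. Its brightest probe set 1426719_at read 9.32, 9.29 and 9.18 in APLP2-KO cortex, 9.25, 9.23 and 9.18 in cortex of APPsα-DM, 9.03, 9.04 and 9.09 in APLP2-KO hippocampus, and 8.98, 9.26 and 9.03 in APPsα-DM hippocampus. The tissues did not overlap in APLP2-KO, but APPsα-DM hippocampus array 2 lay above the cortex arrays of its own genotype. Over both genotypes signal was 1.12-fold lower in hippocampus (-0.17 ± 0.05, adjusted p = 0.0470), and 1452342_at was 1.15-fold lower (-0.21 ± 0.06, adjusted p = 0.0247). Neither probe set passed within a genotype, where the smallest adjusted p was 0.103. The third probe set, 1426720_at, was dim, meaning that its mean lay below the median of all probe sets, 5.89, and differed by -0.02.

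These Apbb2 calls were narrow. The call of 1426719_at was lost with 10 of the 12 arrays left out in turn, and that of 1452342_at without APLP2-KO cortex array 1, APPsα-DM cortex array 1, or APPsα-DM hippocampus array 1 or 3. Without APPsα-DM hippocampus array 2, 1452342_at passed within both genotypes (adjusted p = 0.0356 and 0.0265). With the level of choroid plexus markers as a covariate the differences over both genotypes were -0.12 (adjusted p = 0.210) and -0.16 (0.130). Apbb3, the more widely made relative, had 1 probe set that read 8.39, 8.41 and 8.54 in APLP2-KO cortex and 8.38 on all 3 APPsα-DM hippocampus arrays, and its tissue difference over both genotypes was -0.08 (adjusted p = 0.291).

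The X11 genes encode adaptors with PDZ domains that tether APP and calsyntenins at the secretory and synaptic membrane. Apba2, the neuronal form X11-beta, read 9.81, 9.80 and 9.74 in APLP2-KO cortex, 9.78, 9.68 and 9.72 in cortex of APPsα-DM, 9.79, 9.80 and 9.81 in APLP2-KO hippocampus, and 9.81, 9.89 and 9.90 in APPsα-DM hippocampus. In APPsα-DM the tissues did not overlap, yet the difference of 0.14 did not pass (95% interval 0.01 to 0.27, adjusted p = 0.182), and in APLP2-KO it was 0.01. Apba1, the form X11-alpha made in neurons, differed by -0.15 in APLP2-KO (95% interval -0.32 to 0.02) and by 0.01 in APPsα-DM on 1455369_at. Its other 2 probe sets were dim. Apba3, the form made in many tissues, differed by -0.14 and -0.07.

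Mapk8ip1 encodes JIP1, a scaffold that holds kinases of the JNK pathway and ties cargo, APP included, to kinesin. Probe set 1425679_a_at read 9.95, 9.96 and 9.82 in APLP2-KO cortex and 9.62, 9.88 and 9.92 in APPsα-DM cortex. In hippocampus it read 9.41, 9.34 and 9.41 in APLP2-KO and 9.26, 9.50 and 9.33 in APPsα-DM. All cortex arrays were above all hippocampus arrays, with APPsα-DM cortex array 1 and hippocampus array 2 the nearest to each other. The signal was 1.44-fold lower in hippocampus in APLP2-KO (-0.53 ± 0.09, adjusted p = 0.00190) and 1.36-fold lower in APPsα-DM (-0.44 ± 0.09, adjusted p = 0.00696).

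The probe sets of Mapk8ip1 disagreed. The fainter 1440619_at read between 6.68 and 7.26 and differed by 0.25 in APLP2-KO (adjusted p = 0.174) and 0.08 in APPsα-DM (adjusted p = 0.699), with overlapping tissues in both. When the probe sets of each gene were averaged, the Mapk8ip1 difference shrank to -0.14 in APLP2-KO (adjusted p = 0.246) and -0.18 in APPsα-DM (adjusted p = 0.136), while over both genotypes it was -0.16 and still passed (adjusted p = 0.0404). Of its 2 probe sets only the brighter had lower signal in hippocampus.

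Dab1 encodes the adaptor that is phosphorylated when reelin binds its receptors, and it guides neuronal layering in development and dendrites and synapses later. Probe set 1435578_s_at read 9.38, 9.23 and 9.19 in APLP2-KO cortex and 9.29, 9.16 and 9.41 in APPsα-DM cortex. Hippocampus arrays read 9.71, 9.73 and 9.85 in APLP2-KO and 9.66, 9.85 and 9.76 in APPsα-DM. The hippocampus arrays were all higher, and within each tissue the genotypes overlapped. Signal was 1.41-fold higher in hippocampus in APLP2-KO (0.50 ± 0.08, adjusted p = 0.00166) and 1.39-fold higher in APPsα-DM (0.47 ± 0.08, adjusted p = 0.00283).

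All 5 Dab1 probe sets pointed the same way. Probe set 1421100_a_at was 1.36-fold higher in APLP2-KO hippocampus and 1.42-fold higher in APPsα-DM hippocampus, 1427308_at 1.40-fold and 1.32-fold, and 1435577_at 1.31-fold and 1.43-fold, all past the threshold. The remaining probe set, 1427307_a_at, passed in APPsα-DM (0.34, adjusted p = 0.0147) but not in APLP2-KO (0.24, adjusted p = 0.0655). Its APPsα-DM call was lost without cortex array 1 (adjusted p = 0.0651) or hippocampus array 3 (0.0683), and its APLP2-KO difference passed without cortex array 1 (0.0424). The other 4 probe sets kept their calls in both genotypes with any array left out. Over both genotypes the 5 differences lay between 0.29 and 0.48.

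Itm2b encodes BRI2, a membrane protein with a BRICHOS domain whose gene is mutated in familial British and Danish dementia. Probe set 1417999_at read 12.77, 12.74 and 12.74 in APLP2-KO cortex, 12.81, 12.76 and 12.79 in cortex of APPsα-DM, 12.99, 12.95 and 12.95 in APLP2-KO hippocampus, and 12.93, 12.96 and 12.95 in APPsα-DM hippocampus. The groups of each tissue were tight and the tissues did not overlap. Its spread within groups, a residual SD of 0.02, was lower than that of all but 0.0466% of probe sets, against a median of 0.12. Over both genotypes it was 1.14-fold higher in hippocampus (0.19 ± 0.04, adjusted p = 0.00360), and 1418000_a_at was 1.18-fold higher (0.24 ± 0.05, adjusted p = 0.00451).

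Within APLP2-KO both bright Itm2b probe sets passed (0.21 ± 0.05, adjusted p = 0.0211, and 0.25 ± 0.07, adjusted p = 0.0391). In APPsα-DM the differences of 0.16 and 0.23 did not pass (adjusted p = 0.0835 and 0.0632), and the difference between the genotypes was not past the threshold either (adjusted p = 0.9998). The APLP2-KO calls were narrow. With the replicate number as a block the adjusted p of 1418000_a_at was 0.0521, and with the choroid plexus covariate it was 0.0564. Its call was also lost without any of the 6 APLP2-KO arrays or without APPsα-DM hippocampus array 3, and that of 1417999_at without APLP2-KO cortex array 2 or 3 or any APLP2-KO hippocampus array. The third Itm2b probe set was dim, with values from 3.51 to 4.12, and passed over both genotypes only without APPsα-DM cortex array 2 (adjusted p = 0.0359).

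Sorl1 encodes a sorting receptor that returns APP from endosomes and whose variants are linked to Alzheimer's disease. Probe set 1426258_at read 11.16, 11.27 and 11.20 in APLP2-KO cortex and 11.28, 11.18 and 11.27 in APPsα-DM cortex. In hippocampus it read 10.92, 10.95 and 11.21 in APLP2-KO and 10.96, 11.30 and 11.01 in APPsα-DM. Of the 6 hippocampus arrays 4 were below all cortex arrays, whereas APLP2-KO array 3 lay among them and APPsα-DM array 2 above them all. The tissue difference over both genotypes was -0.17 ± 0.07 (adjusted p = 0.119). It passed when either of those arrays was left out, at -0.21 without the former (adjusted p = 0.0430) and -0.22 without the latter (adjusted p = 0.0281). Both arrays run against the difference, so leaving them out enlarges it by construction. Of the 22 alternatives for this comparison, 3 called the probe set.

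The brighter Sorl1 probe sets moved together within groups. The deviations of 1426258_at and 1453003_at from their group means had a Pearson r of 0.97 over the 12 arrays, which share RNA, so this describes the same samples read by different probes. On 1453003_at the same hippocampus arrays were high, at 10.95 and 11.13, against 10.53 to 10.68 on the other hippocampus arrays. The fainter 1460390_at had an r of 0.64 with 1426258_at and 0.50 with 1453003_at. On it APLP2-KO array 3 read 7.74 beside 7.40 and 7.58, but APPsα-DM array 2 read 7.67 beside 7.62 and 7.61. The matching r was 0.86 for the brighter Apbb2 probe sets and 0.66 for Apbb1.

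The 2 hippocampus arrays with high Sorl1 were also high for other members. The counts below use the brightest probe sets of the 10 genes, Sorl1 included. APLP2-KO hippocampus array 3 had the highest value of its group in 8 and APPsα-DM hippocampus array 2 in 7. Some margins were small: Apba2 on APLP2-KO array 3 and Itm2b on APPsα-DM array 2 each lay 0.01 above the group mean. Array 1 was the lowest of its group in 8 in both genotypes. Such counts were not made over all genes, and a shift of the whole array was not tested. Markers of the dentate gyrus and CA fields moved along: their mean log2 signal was 8.89 and 8.87 on the former arrays and 8.53 on array 1 of both genotypes. Choroid plexus markers did not follow a common order, at 8.20 on APLP2-KO array 3, 6.29 on APPsα-DM array 2, and 6.06 and 9.21 on array 1. The part of any of these markers in the members' spread was not tested.

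**Figure D2:**
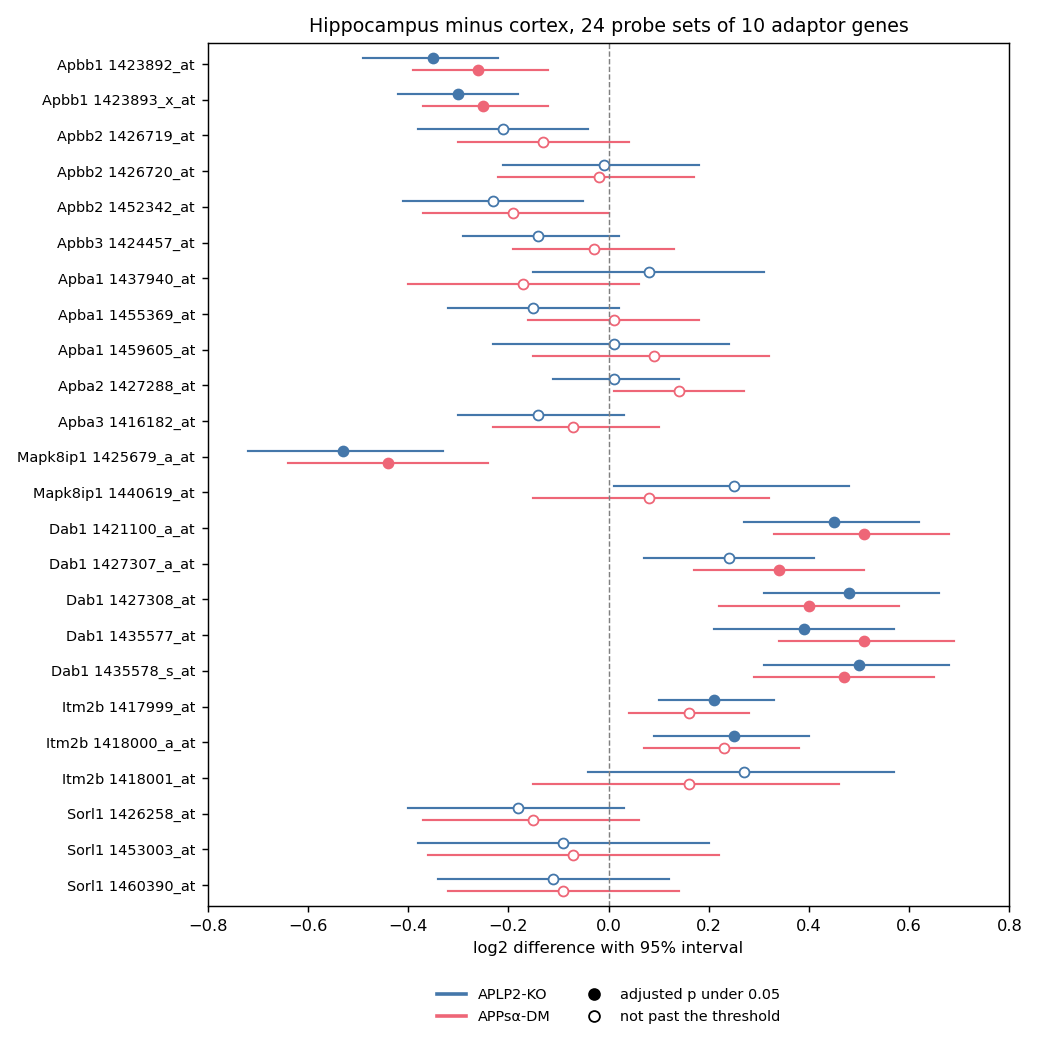
Difference in log2 signal between hippocampus and cortex (horizontal axis, log2) for the 24 probe sets in each genotype, where points are estimates, bars are 95% intervals and filled points have an adjusted p under 0.05. The Dab1 probe sets lie right of 0 and the Apbb1 probe sets left of 0 in both genotypes. Those of the X11 genes lie around 0 and those of Sorl1 left of it with intervals that include 0, and none of these is filled.

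Counted over the members, 9 of 24 probe sets passed between the tissues in APLP2-KO, where 12.6% of all probe sets did. Of these 6 were higher in hippocampus (5.62% of all probe sets) and 3 lower (6.98%), and they belonged to 4 genes. In APPsα-DM 8 of 24 passed, 5 higher and 3 lower, from 3 genes, against 10.6%, 5.21% and 5.42% of all probe sets. Over both genotypes 12 passed, 7 higher and 5 lower, from 5 genes, against 21%, 10.3% and 10.7%. The member probe sets are brighter than most, and among probe sets at or above the median signal 20.4%, 16.7% and 32% passed in the 3 comparisons, against 9, 8 and 12 of the 20 bright members. The median absolute difference was 0.22 in APLP2-KO and 0.16 in APPsα-DM, beside 0.11 over all probe sets in each. Arrays of the tissues did not overlap for 13 members in each genotype, against 30.2% of all probe sets in APLP2-KO and 27.4% in APPsα-DM. Probe sets of a gene share its transcripts and are not replicates.

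Tissue markers moved with these results. In hippocampus 7 of 8 dentate gyrus and CA markers were higher in both genotypes, with mean log2 signals of 8.53 to 8.89 against 5.95 to 6.24 in cortex. The remaining marker, Pdzd2, went the other way (-0.59 in APLP2-KO and -0.57 in APPsα-DM) without passing. Markers of neocortical layers were lower in hippocampus, 6 of 7 in APLP2-KO and 5 of 7 in APPsα-DM. Fezf2 of this list was higher (0.36 in APLP2-KO and 0.42 in APPsα-DM), and passed over both genotypes only. All 7 striatal markers were lower in hippocampus in both genotypes, at 7.76 to 8.15 against 10.01 to 10.70 in the tissue labelled prefrontal cortex. Of 7 endothelial markers 3 were lower in APLP2-KO hippocampus (median of the list -0.18, lowest -0.55), 0 passed in APPsα-DM and 1 was lower over both genotypes. Of 5 neuronal markers 0 passed within a genotype and 1 was lower over both. Astrocyte markers ranged from 10.56 to 10.79 in cortex and 10.85 to 10.96 in hippocampus, with 3 of 7 markers higher and 1 lower in each genotype. Within a genotype 0 of 6 oligodendrocyte and 0 of 7 microglial markers passed, and over both genotypes 2 and 1 of them were lower in hippocampus. Choroid plexus markers ranged from 5.27 to 8.17 in cortex and 6.06 to 9.21 in hippocampus, and with their level as a covariate the calls of Dab1, Apbb1 and Mapk8ip1 in both genotypes were kept. The part of the other markers was not tested, and in whole tissue fewer cells of a type and less RNA per cell cannot be told apart.

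The genotype comparison gave no call among the members by limma in either tissue. In cortex 0 of 24 probe sets passed and 0 had an unadjusted p under 0.05, where 0.00888% of all probe sets, 4 in number, passed. Differences (APPsα-DM minus APLP2-KO) ranged from -0.15 to 0.15, with a smallest unadjusted p of 0.0686 and a smallest adjusted p of 0.9996. The lowest bound of the 95% intervals over the brightest probe sets of the 10 genes was a ratio of 0.804 and the highest 1.19. The arrays did not overlap for 2 probe sets, both of Apbb1, against 8.73% of all probe sets.

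Hippocampus gave the same count. Of the 24 probe sets 0 passed and 0 had an unadjusted p under 0.05, against 0.00888% passed of all. Differences ranged from -0.10 to 0.07, the smallest unadjusted p was 0.303, and the 95% ratio bounds of the brightest probe sets spanned 0.845 to 1.21. Arrays did not overlap for 1423893_x_at of Apbb1 and for Apba2, against 9.88% of all probe sets. Dab1 on 1435578_s_at differed by 0.02 in cortex and -0.01 in hippocampus, Itm2b on 1417999_at by 0.04 and -0.01, and Sorl1 on 1426258_at by 0.03 and 0.06.

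No genotype difference of a member was shown to depend on tissue. The test of the hippocampal minus the cortical effect called 0 of 24 members, with 0 at an unadjusted p under 0.05, and 0% of all probe sets. The estimates ran from -0.25 to 0.16, with Apba1 at both ends, the dim 1437940_at at -0.25 ± 0.15 and the bright 1455369_at at 0.16 ± 0.11. With the tissues of each genotype and number averaged, again 0 of 24 members passed and 0 had an unadjusted p under 0.05, against 0.00888% of all probe sets, and differences lay between -0.11 and 0.05.

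**Figure D3:**
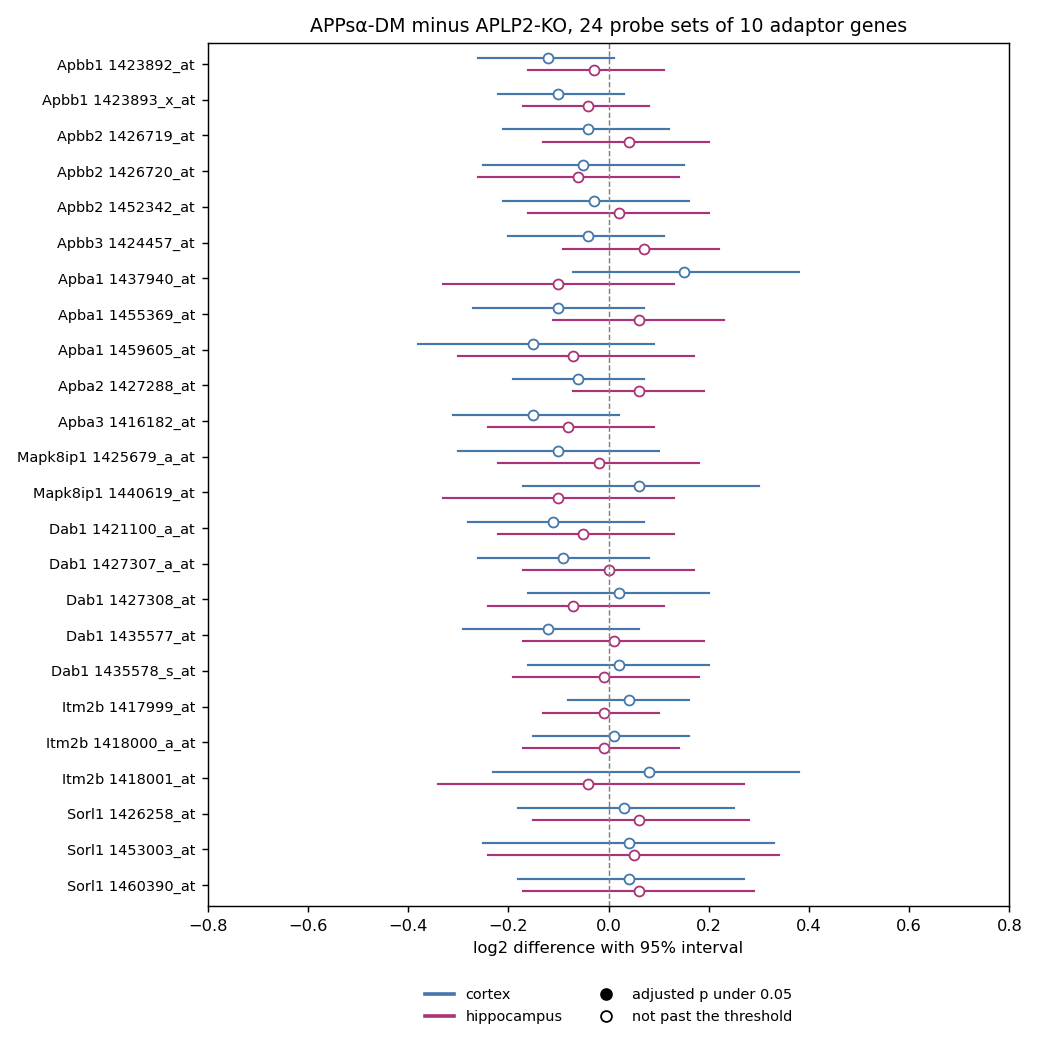
Difference in log2 signal between APPsα-DM and APLP2-KO (horizontal axis, log2) for the 24 probe sets in cortex and in hippocampus, where points are estimates and bars are 95% intervals. Every interval includes 0, and no point is filled because no adjusted p is under 0.05.

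Known partners of these proteins were read from 7 lists with 77 genes, of which 72 were measured, each by its brightest probe set. Between the genotypes limma called 0 of 72 in either tissue, with 5 at an unadjusted p under 0.05 in cortex and 1 in hippocampus. Over all genes 0.0055% passed in each direction in each tissue, and 4.50% of all probe sets in cortex and 4.11% in hippocampus had an unadjusted p under 0.05. Between the tissues 20 passed in APLP2-KO, 4 higher and 16 lower in hippocampus, and 21 in APPsα-DM, 5 higher and 16 lower. Over all 18193 genes 6.78% were higher and 9.70% lower in APLP2-KO, and 6.59% and 7.34% in APPsα-DM.

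The partners of the X11 adaptors differed throughout, although Apba1, Apba2 and Apba3 did not pass. All 9 measured partners passed in both genotypes, 2 higher and 7 lower in hippocampus, with a median difference of -0.45 in APLP2-KO and -0.38 in APPsα-DM, beside -0.01 and -0.02 over all genes. Stx1a, the plasma membrane syntaxin of synaptic vesicle fusion, fell from 12.22 ± 0.08 in cortex to 10.84 ± 0.11 in hippocampus of APLP2-KO (-1.38 ± 0.08, adjusted p = 2.86e-07) and differed by -1.24 in APPsα-DM. The calsyntenins, cargo proteins that bind X11, went opposite ways, Clstn1 by -0.61 and -0.42 and Clstn2 by 0.83 and 0.82. Lin7c, a PDZ protein of the complex that X11-alpha joins, was higher by 0.59 and 0.63.

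Of 9 Fe65 partners, 2 were higher and 2 lower in hippocampus in each genotype. The teashirt factors, nuclear proteins that bind Fe65, split: Tshz2 was higher by 0.93 in APLP2-KO and 1.25 in APPsα-DM, whereas Tshz3 was lower (-0.83 and -0.78) and so was Tshz1 (-0.43 and -0.54). Enah, an actin regulator that binds the Fe65 WW domain, was higher by 0.36 and 0.43. Of 10 members of the JIP1 and JNK module, 3 were lower in each genotype, like Mapk8ip1 on its brighter probe set, and 0 were higher. They were the kinesin heavy chain Kif5a (-0.43 and -0.40) and the JNK kinases Mapk9 (-0.39 and -0.29) and Mapk8 (-0.28 and -0.30).

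Few genes of the reelin pathway passed beside Dab1. Of the 11 measured 0 were higher and 1 lower in each genotype, namely Pafah1b1 (LIS1), a dynein regulator, at -0.30 ± 0.07 in APLP2-KO (adjusted p = 0.0177) and -0.34 ± 0.07 in APPsα-DM (adjusted p = 0.0107). Over both genotypes 2 of the 11 were higher and 2 lower, where 11.7% and 14.2% of all genes were. Of 6 relatives and proteases of the ITM2 family 0 passed in either genotype by limma, with 1 at an unadjusted p under 0.05 in each and 1 higher over both genotypes. Among 14 sorting receptors and retromer proteins, 0 were higher and 2 lower in APLP2-KO hippocampus, and 1 was higher and 1 lower in APPsα-DM. Sorcs1, a receptor of the family of SORL1, was lower in both, at -1.80 ± 0.13 in APLP2-KO (adjusted p = 1.91e-06) and -1.61 ± 0.13 in APPsα-DM (adjusted p = 5.71e-06). Of 13 other tail adaptors 1 was lower in APLP2-KO hippocampus and 2 in APPsα-DM, and 0 were higher in either. Numb, a regulator of endocytosis and cell fate, was lower in both genotypes (-0.88 ± 0.07, adjusted p = 3.43e-06, and -0.79 ± 0.07, adjusted p = 9.40e-06).

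**Figure D4:**
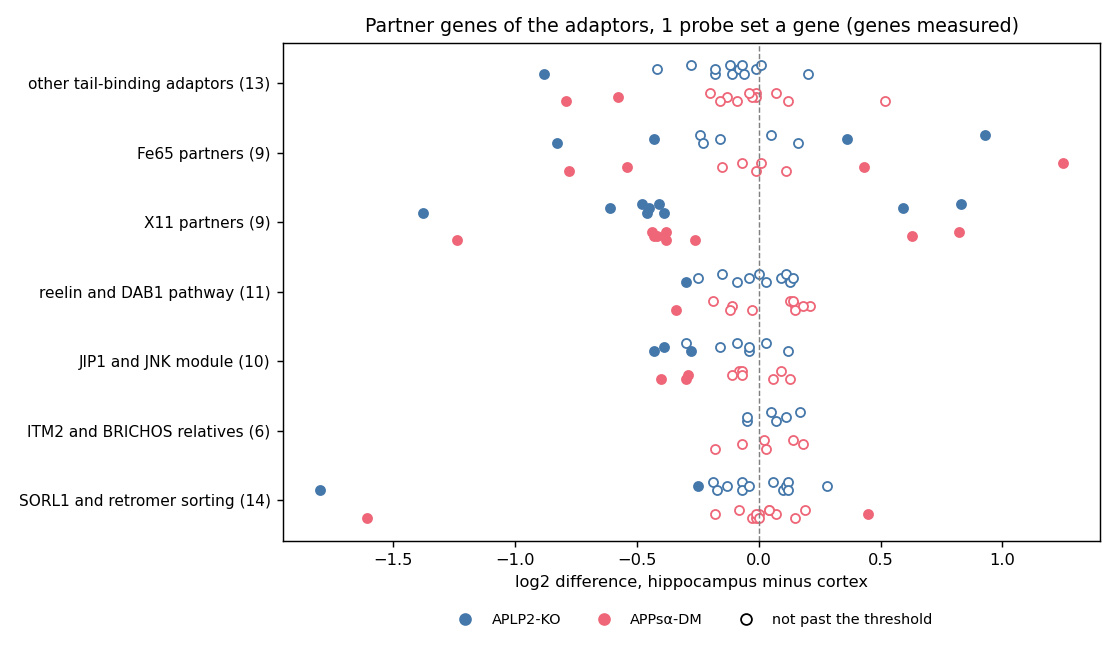
Difference in log2 signal between hippocampus and cortex for each measured gene of the 7 partner lists (horizontal axis, log2), where each dot is a gene in APLP2-KO (blue) or APPsα-DM (red) and filled dots have an adjusted p under 0.05. The X11 partners are filled throughout and spread to both sides of 0, with Stx1a at -1.38 and -1.24.

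The genes with the most similar pattern were sought among 11865 genes with a bright probe set, by Pearson r over the 12 arrays, which includes the gap between the tissues. For Apbb1 they were Baalc (r = 0.986), Sult4a1 (0.983) and Mb21d2 (0.983), which differed between the tissues by -2.17, -0.53 and -0.94 in APLP2-KO. For Mapk8ip1 they were Cdk5r2 (0.975), an activator of the neuronal kinase CDK5, Rab5c (0.974) and Phactr1 (0.974). For Dab1 they were Garem1 (0.988), Ncdn (0.986) and Arhgap21 (0.985), which differed by 0.80, 0.48 and 0.50 in APLP2-KO and by 0.65, 0.55 and 0.47 in APPsα-DM. These correlations describe likeness over arrays that share the tissue contrast.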

How the data were processed

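RNA from 12 samples was measured on Affymetrix arrays from 1 µg of total RNA, per the labels' protocols. The deposited table holds log2 values, made with RMA and the affy package per the submitters' processing notes (versions and build not given in the sources used here). They ranged from 1.80 to 14.36, with array medians of 5.86 to 5.91. The number of arrays limits the precision. Of 45101 probe sets, 64 controls were left out and 45037 tested, without a filter on dim signals. Symbols came from the platform annotation, where 34945 probe sets had 1 symbol, 932 several and 9160 none, and 34741 matched a gene of the RefSeq table (GRCm38.p6).

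In R 4.3.3, limma 3.58.1 (lmFit, contrasts.fit, eBayes) fitted the 4 group means over all 12 arrays, with 8 residual and 4.25 prior degrees of freedom. The procedure was tested on simulated data. The members and gene lists were chosen with earlier results of these data known. All member probe sets are reported. Of each partner list, up to 4 genes with the largest tissue difference past the threshold in both genotypes are named, and for members past it in both genotypes the 3 genes with the most similar pattern. Beyond 3 mice per genotype, the labels do not say which mouse each array came from. The p-values rest on the spread between these samples. The main fit treats the 12 arrays as independent. With 3 mice per genotype, however, the 3 cortex and 3 hippocampus arrays of a genotype cannot all come from different mice.

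Replicate numbers were checked for pairing by the correlation of deviations from group means. Same-numbered cortex and hippocampus samples gave r of 0.109 to 0.155 in APLP2-KO, all over 0.1, and 0.019 to 0.079 in APPsα-DM. Same-numbered samples of the same tissue but other genotype, which cannot come from the same mouse, gave r of -0.255 to 0.206. Of these 6 pairs 2 were over 0.1, so an r over 0.1 does not by itself show pairing. Within a genotype, 11 of 12 arrays correlated best with their own number in the other tissue. Across genotypes within a tissue, 5 of 12 did so with their own number. Whether same-numbered samples came from the same mouse was therefore not settled in either genotype. The fits above use no pairing. A fixed block by number over both genotypes and a random block by genotype and number are alternatives. The mean genotype difference, fitted on the average of the tissues for each number, joined samples by number in both genotypes. Alternatives were another normalization, variance moderation, array weights, a filter on dim probe sets, a choroid plexus covariate, only the groups compared, a fixed or random replicate block, gene means, and each array left out.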

Additional observations from a re-analysis of the deposited data

How the results depend on the processing

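In all alternatives the genotype comparisons called 0 member probe sets, with smallest adjusted p of 0.892 in cortex, 0.382 in hippocampus and 0.725 for the difference between tissues, and no called tissue difference changed sign. The tissue count stood at 9 in APLP2-KO (8 to 12 over the alternatives that kept every array, 7 to 10 with an array left out), 8 in APPsα-DM (6 to 10, and 6 to 9) and 12 over both genotypes (10 to 14, and 10 to 13). With a fixed block by replicate number, which joins the genotypes, it was 8, 8 and 11. Apart from Itm2b 1418000_a_at in APLP2-KO and Apbb2 1426719_at over both genotypes (adjusted p = 0.0587), this blocked fit changed no call of a named member. With a random block by genotype and number it was 9, 9 and 12, and Itm2b 1418000_a_at passed in APPsα-DM (adjusted p = 0.0477). With only the arrays of the groups compared, 3 calls were lost: Itm2b 1417999_at in APLP2-KO (adjusted p = 0.0701) and Apbb1 1423892_at and 1423893_x_at in APPsα-DM (0.0727 and 0.0644). Itm2b passed in APPsα-DM among bright probe sets (0.0216 and 0.0257) and with an intensity trend (0.00400 and 0.0121), and Sorl1 1426258_at passed over both genotypes with array weights (0.0219). Array weights also brought Apbb2 1426719_at (0.0473) and, in the direction opposite to the brighter probe set, Mapk8ip1 1440619_at (0.0461) past the threshold in APLP2-KO. Itm2b 1418000_a_at lost its APLP2-KO call with repeated quantile normalization (0.0628) and median centring (0.0608). The cause of these changes was not tested.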
